A study of Mus musculus with 6 samples.

Results

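The V1 sector is the cytosolic, ATP-hydrolysing part of the vacuolar H+-ATPase (V-ATPase), and its 8 ubiquitously used subunit genes Atp6v1a, Atp6v1b2, Atp6v1c1, Atp6v1d, Atp6v1e1, Atp6v1f, Atp6v1g1 and Atp6v1h were taken by symbol from a count table of 35976 genes. All 8 were present and all 8 passed the filter on low counts. The cells were RAW264.7, a mouse line with macrophage properties, and 3 libraries came from cells exposed to itaconate for 24 h and 3 from cells with no treatment (control). No genotype change, vehicle, dose or form of itaconate is named in the labels, and none says that replicate libraries were grown as separate cultures. A p-value here therefore measures the scatter among libraries that may be technical repeats. Polyadenylated RNA was read from its 3′ end (QuantSeq FWD).

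The V-ATPase is a rotary proton pump that acidifies lysosomes, endosomes and phagosomes, and in macrophages its activity is needed for lysosomal proteases to work and for the killing and digestion of engulfed particles. In V1, alternating A and B subunits form the head that hydrolyses ATP, the D and F subunits form the central shaft that turns inside it, and the E and G subunits form the outer stalks that keep the head from spinning. The C and H subunits sit where V1 meets the membrane-embedded Vo sector, which carries the protons. V1 can come off Vo and rejoin it, and this switch, studied most closely in yeast, controls the pump without any change in transcript. The itaconate to which the cells were exposed is a metabolite that activated macrophages make in mitochondria.

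The libraries held 5202626 to 6098934 counts. The smallest number of counts behind any member in any library was 318, for Atp6v1h in control replicate 3. CPM values express a gene's reads relative to the scaled total of its library. Log2 CPM correlated across genes at 0.963 to 0.970 (Pearson) within groups and at 0.930 to 0.934 between groups, which describes libraries over shared genes. All 10 macrophage markers had at least 3 counts in every library. Their summed level was 6268 to 6612 CPM in itaconate libraries, against 8426 to 9573 CPM in control libraries. Of the 10, 1 was called higher (Cd68), 6 lower and 3 not called, against 10.7% higher and 11.2% lower among all genes tested. The largest falls were in Csf1r (mean 3693 CPM in control and 1837 CPM in itaconate libraries) and Cd14 (1507 and 777 CPM). Marker sums for epithelium, neutrophils, fibroblasts, B cells and T or NK cells reached at most 2.85 CPM in any library. The part of the marker difference in the results below was not tested. In bulk RNA, a change in the number of cells expressing a gene and a change in RNA per cell cannot be told apart.

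Transcripts of 6 of the 8 V1 genes rose in itaconate-exposed cells, 0 fell, and 2 were not called. The rises were moderate. They were led by the stalk gene Atp6v1g1 (1.76-fold) and the regulatory gene Atp6v1h (1.61-fold), followed by the catalytic gene Atp6v1a (1.39-fold), the shaft gene Atp6v1d (1.38-fold), the stalk gene Atp6v1e1 (1.28-fold) and the bridging gene Atp6v1c1 (1.26-fold). The B subunit gene Atp6v1b2 and the shaft gene Atp6v1f were not called. Of all 10636 genes tested, 21.9% were called, 10.7% higher and 11.2% lower (edgeR quasi-likelihood test, Benjamini-Hochberg adjusted p under 0.05). Since highly expressed genes are measured more precisely, the share called higher was also counted among the 2400 tested genes with a mean level at or above that of the lowest V1 member, and it was 20.9%. Every itaconate library lay above every control library for 7 of the 8 members, against 17.6% of all tested genes. The median log2 fold change was 0.41 over the 8 members and -0.01 over all genes tested. Summed over the 8 genes, V1 transcripts made up 3920 ± 76.8 CPM in itaconate libraries and 3047 ± 46.1 CPM in control libraries (SD, n = 3 each), a ratio of 1.29.

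**Figure D1:**
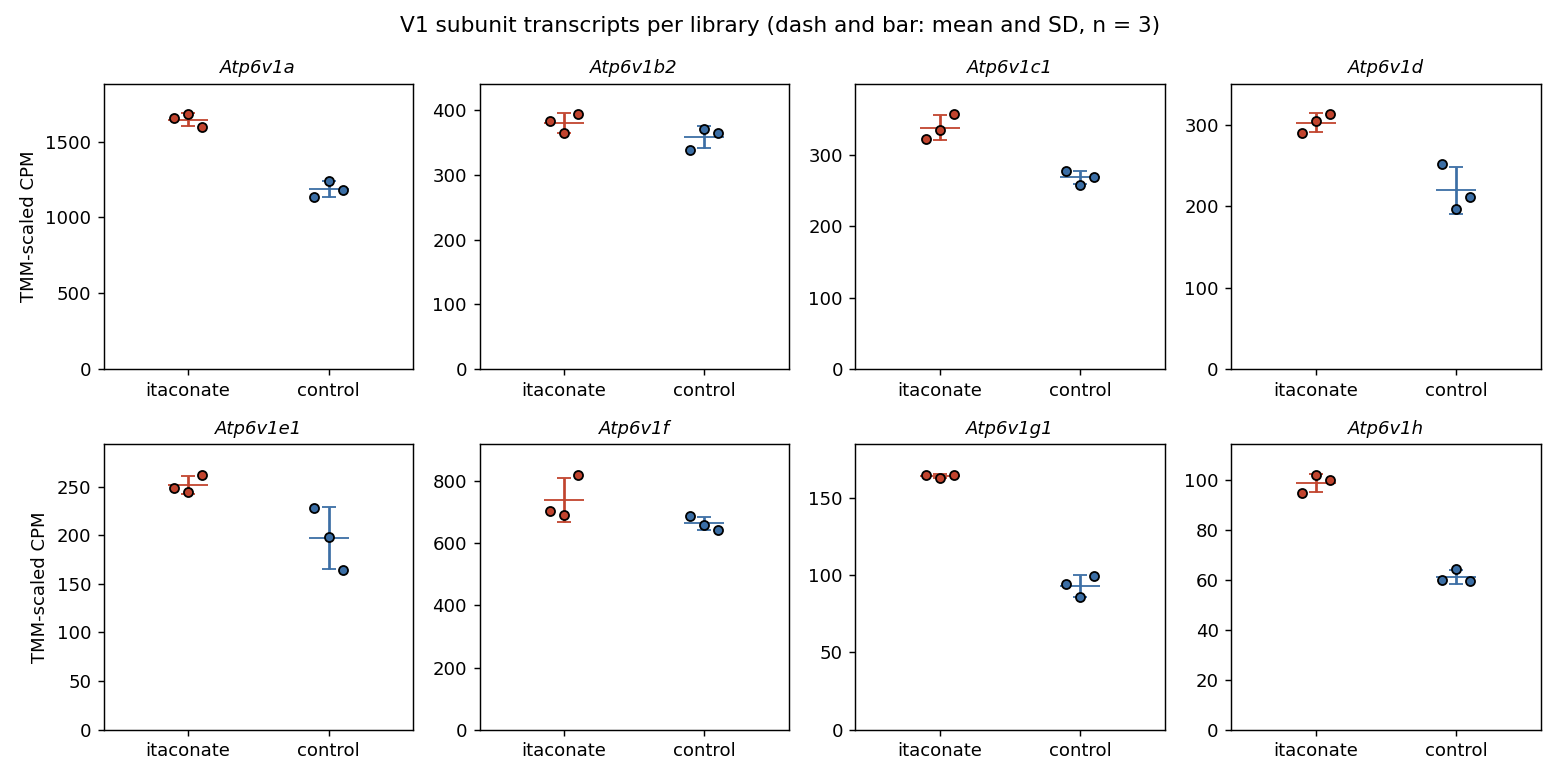
CPM scaled by edgeR's TMM method (y axis, from 0) for the 8 V1 genes, with 1 point per library and the mean and SD of 3 libraries for itaconate (left) and control (right). The groups do not overlap for any gene except Atp6v1b2, and the gap is widest relative to the level for Atp6v1g1 (means 164.1 and 93.2 CPM) and Atp6v1h (98.7 and 61.1 CPM).

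Of the head subunit genes, Atp6v1a was called higher and Atp6v1b2 was not called. Differences between members were tested only as shares of the V1 sum, given further on. Atp6v1a encodes the A subunit, which holds the catalytic ATP-binding sites. It had 1659, 1681 and 1598 CPM in itaconate libraries, against 1136, 1240 and 1182 CPM in control libraries. The itaconate libraries were all higher than the control libraries, and the 2 groups were separated by more than either group's range. The log2 fold change was 0.47 ± 0.07 (SE, edgeR adjusted p = 8.29e-07). Atp6v1b2 encodes the B subunit that most cell types use, which binds ATP without being the main catalytic site and also contacts actin. It had 384, 364 and 394 CPM in itaconate libraries, against 339, 371 and 365 CPM in control libraries, and the groups overlapped. Its log2 fold change of 0.09 ± 0.08 was not called (edgeR adjusted p = 0.511), and an interval of 1.96 SE on either side ran from a 0.950-fold to a 1.19-fold level.

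The promoter table used here held windows for 4 of the members, Atp6v1a, Atp6v1d, Atp6v1e1 and Atp6v1f. All 4 are shown, whatever their call, and the other members, Atp6v1g1 and Atp6v1h among them, had no window. The first 3 rose and Atp6v1f was not called. The E-box CACGTG lies at the core of the site bound by TFEB and related factors, which are known to drive lysosomal genes. The printed stretches lie upstream of the RefSeq start (GRCm38.p6, 5′ to 3′ on the gene's strand) and leave out every base in a GENCODE M21 exon. The Atp6v1a stretch lies between exons inside that gene's GENCODE M21 span, which runs to 44139705 on the minus strand. Capitals mark CACGTG and the GC box GGGCGG.
Atp6v1a, chr16:44139306-44139461, minus strand: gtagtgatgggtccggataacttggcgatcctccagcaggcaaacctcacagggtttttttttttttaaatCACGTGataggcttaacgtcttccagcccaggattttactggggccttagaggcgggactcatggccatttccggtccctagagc
Atp6v1d, chr12:78861639-78861818, minus strand: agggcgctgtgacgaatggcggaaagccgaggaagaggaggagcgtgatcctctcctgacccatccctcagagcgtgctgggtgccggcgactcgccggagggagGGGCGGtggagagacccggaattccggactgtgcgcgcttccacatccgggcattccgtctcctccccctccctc
Atp6v1e1, chr6:120822794-120822948, minus strand: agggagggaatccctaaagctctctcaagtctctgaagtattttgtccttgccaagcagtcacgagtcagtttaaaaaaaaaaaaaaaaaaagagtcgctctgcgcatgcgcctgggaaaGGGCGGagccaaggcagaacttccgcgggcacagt
Atp6v1f, chr6:29467533-29467717, plus strand: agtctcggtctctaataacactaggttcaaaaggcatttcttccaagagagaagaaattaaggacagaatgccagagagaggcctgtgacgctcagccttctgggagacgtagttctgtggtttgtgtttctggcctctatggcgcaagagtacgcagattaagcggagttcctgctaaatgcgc

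Each window of 300 bases (250 before and 50 after the start) was searched on both strands. CACGTG was found in the Atp6v1a window, with its first base 131 bases before the start, and in none of the other 3. It occurs in 7.15% of the 32851 promoter windows of the table. GGGCGG was found in the Atp6v1d window at 75 bases, in the Atp6v1e1 window at 130 bases and in the Atp6v1f window at 31 and at 14 bases before the start, and in 35.7% of all windows. Both Atp6v1f matches lie past that gene's GENCODE M21 start at 29467718, outside the printed stretch. The antioxidant response element core TGACNNNGC, the site of NRF2, was found in the Atp6v1a window at 45 bases before the start, outside the printed stretch because other transcripts of the gene have an exon there, and in 12.4% of all windows. These motifs do not overlap one another in the member windows. A match is a description of the letters and does not show that a factor binds there. The Atp6v1d stretch ends at its far side against the first exon of Eif2s1, a translation initiation factor gene that runs the other way.

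Of the central shaft genes, Atp6v1d was called higher and Atp6v1f was not called. Atp6v1d encodes the D subunit, the long coiled coil of the rotor. It had 290.2, 304 and 313 CPM in itaconate libraries, against 251, 196 and 211 CPM in control libraries. The groups did not overlap, and control replicate 1 lay nearest to the itaconate libraries. The log2 fold change was 0.46 ± 0.09 (SE, edgeR adjusted p = 0.000120). Atp6v1f encodes the small F subunit that sits on D. It had 704, 690 and 820 CPM in itaconate libraries, against 687, 660 and 643 CPM in control libraries. The groups did not overlap, but itaconate replicate 2 was within a few CPM of control replicate 1. The log2 fold change of 0.15 ± 0.08 was not called (edgeR adjusted p = 0.171), and 1.96 SE on either side ran from a 0.999-fold to a 1.24-fold level.

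The stalk genes both rose. Atp6v1g1, which encodes the widely expressed G subunit, had 164.8, 162.7 and 164.9 CPM in itaconate libraries, against 94.1, 85.8 and 99.6 CPM in control libraries. The 3 itaconate libraries lay within 3 CPM of each other and well above the control libraries. Its log2 fold change of 0.82 ± 0.11 was the highest of the 8 (SE, edgeR adjusted p = 2.27e-08). Atp6v1e1, which encodes the widely expressed E subunit and partner of G in each stalk, had 249, 244 and 262 CPM in itaconate libraries, against 228, 199 and 164 CPM in control libraries. The groups did not overlap, and the control libraries were more widely spread than those of any other member relative to their mean. The log2 fold change was 0.35 ± 0.10 (SE, edgeR adjusted p = 0.00571). Without control replicate 3, the lowest library, it was 0.24 and was not called (adjusted p = 0.103).

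The genes at the junction with Vo rose. Atp6v1c1, which encodes the C subunit that clasps the stalks to the membrane sector and leaves V1 when the pump comes apart, had 323, 336 and 357 CPM in itaconate libraries, against 278, 258 and 269 CPM in control libraries. No libraries overlapped between the groups, and the log2 fold change was 0.33 ± 0.09 (SE, edgeR adjusted p = 0.00259). Atp6v1h, which encodes the H subunit that holds free V1 inactive and is required by the assembled pump, had 94.7, 101.8 and 99.7 CPM in itaconate libraries, against 59.8, 64.3 and 59.3 CPM in control libraries. The 3 itaconate libraries were all far above the 3 control libraries, and the log2 fold change was 0.69 ± 0.12 (SE, edgeR adjusted p = 2.17e-05).

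**Figure D2:**
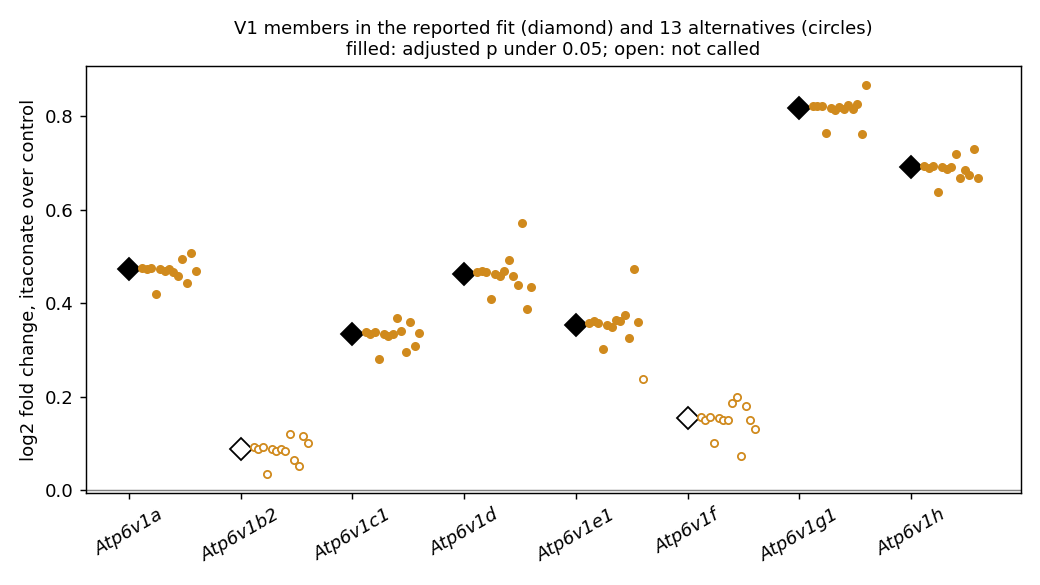
Log2 fold change of itaconate over control (y axis) for each V1 gene in the reported edgeR fit (diamonds) and in 13 alternative fits (circles), filled where the adjusted p is under 0.05. All values lie above 0, Atp6v1b2 and Atp6v1f are open in every fit, and Atp6v1e1 is open in 1.

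Within a group, no library was the highest or the lowest for all 8 members. Itaconate replicate 3 lay above its group's mean log2 CPM for 7 of the 8 members, by at most 0.16 (Atp6v1f), with Atp6v1a as the exception. Control replicate 1 lay above its group mean for 5 members, control replicate 2 for 4 and control replicate 3 for 3. The widest deviations were those of Atp6v1e1, at 0.22 in control replicate 1 and -0.25 in control replicate 3, and of Atp6v1d, at 0.20 in control replicate 1.

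Whether the make-up of the V1 transcript pool differed was compared inside each library, where library scaling cancels. The size of a share depends on how well each transcript's 3′ end is captured, so shares are compared between groups and not between genes. Atp6v1g1 made up 4.26%, 4.19% and 4.11% of the summed V1 counts in itaconate libraries, against 3.06%, 2.79% and 3.33% in control libraries. Atp6v1h made up 2.45%, 2.62% and 2.49% in itaconate libraries, against 1.94%, 2.09% and 1.98% in control libraries. Both shares were higher in every itaconate library than in any control library. Atp6v1b2 made up 9.92%, 9.38% and 9.83% in itaconate libraries, against 11.0%, 12.1% and 12.2% in control libraries. Atp6v1f made up 18.2%, 17.8% and 20.4% in itaconate libraries, against 22.4%, 21.5% and 21.5% in control libraries. These 2 shares were lower in every itaconate library than in any control library. Each of the 4 had an exact two-sided permutation p of 0.1, the smallest that 3 against 3 can give, and 0.2 after adjustment over the 8 shares, so none could pass a threshold of 0.05. For Atp6v1a, the share averaged 42.0% ± 1.87 in itaconate libraries and 38.9% ± 1.75 in control libraries (SD, n = 3 each, exact permutation p = 0.2), with overlap. The shares of Atp6v1c1, Atp6v1d and Atp6v1e1 also overlapped, with differences between the group means of -0.18, 0.51 and -0.03 percentage points. With 1 library left out, these differences ran from -0.39 to -0.04, from 0.098 to 0.999 and from -0.52 to 0.45 percentage points.

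**Figure D3:**
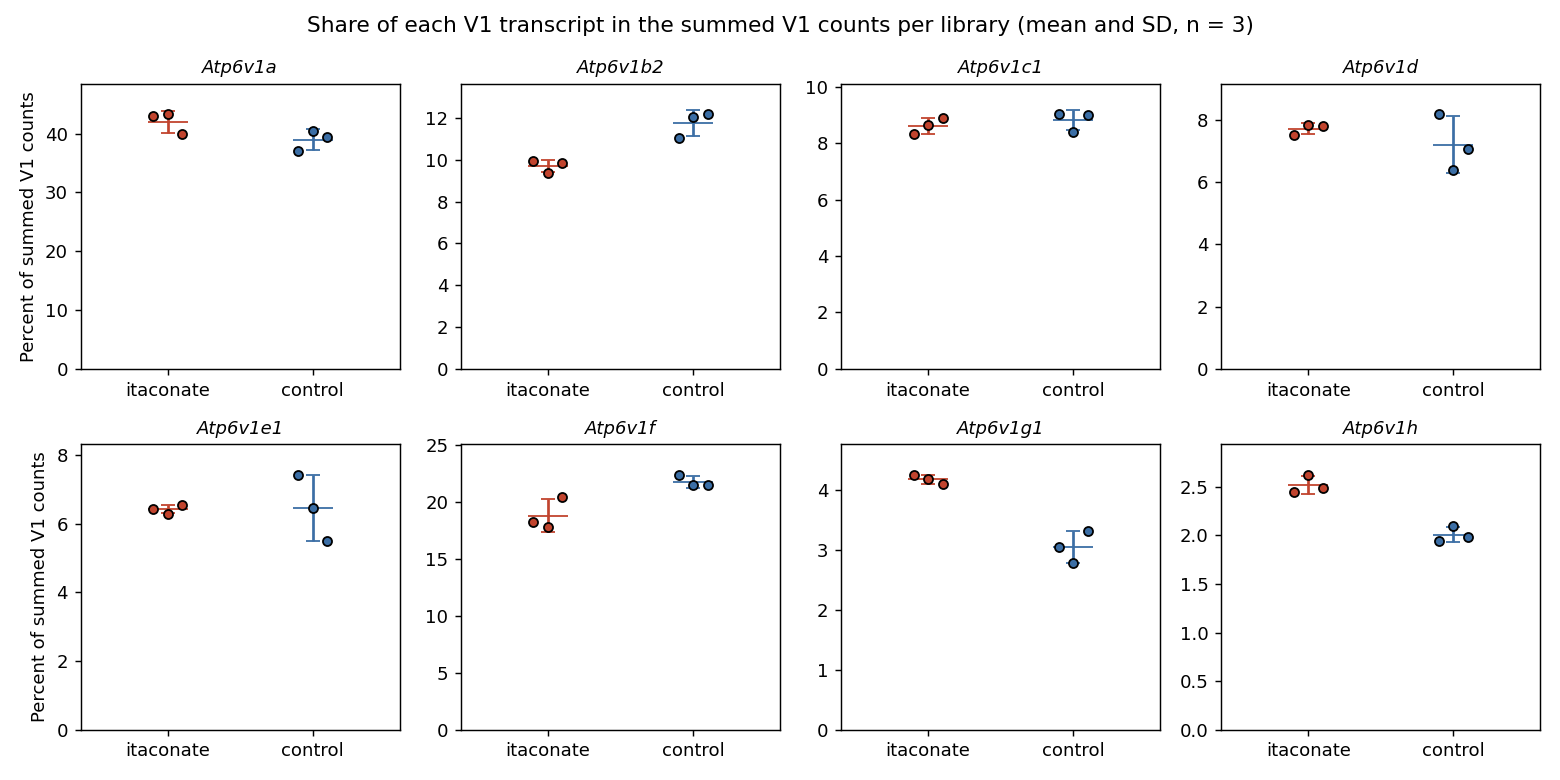
Percent of the summed V1 counts taken by each V1 gene (y axis, from 0), with 1 point per library and the mean and SD of 3 libraries for itaconate (left) and control (right). Atp6v1g1 and Atp6v1h took larger shares in every itaconate library, Atp6v1b2 and Atp6v1f took smaller shares, and the other 4 genes overlapped.

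The tissue-restricted V1 isoforms were near or at 0, so the 8 members account for nearly all counted V1 reads. Atp6v1c2, Atp6v1e2 and Atp6v1g3 had 0 counts in all 6 libraries, where 3 counts in a library would be 0.487 to 0.565 CPM. Exons of Atp6v1c2 overlap those of Pdia6 on the opposite strand, and exons of Atp6v1e2 overlap those of AC154492.1. Whether reads were lost from the counts there was not tested. Atp6v1b1, the B isoform of acid-secreting kidney and inner ear cells, had 0 counts in the itaconate group and 1 in the control group. Atp6v1g2, the neuronal G isoform, had 10, 11 and 13 counts in itaconate libraries, against 17, 3 and 34 counts in control libraries, and its log2 fold change of -0.62 ± 0.70 was not called (edgeR adjusted p = 0.596). Its control counts were widely scattered, and its direction turned without control replicate 3 (0.31). Its exons overlap those of Nfkbil1 on the opposite strand. Nfkbil1 had 1073 counts in the itaconate group and 911 in the control group, against 34 and 54 for Atp6v1g2. How many of the Atp6v1g2 counts came from Nfkbil1 was not tested.

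The members lie on 7 chromosomes, with Atp6v1e1 and Atp6v1f both on chromosome 6 but far apart. In the GENCODE M21 annotation of GRCm38, Atp6v1g1 runs from 63544772 to 63550750 on the plus strand of chromosome 4, Atp6v1h from 5070018 to 5162529 on the plus strand of chromosome 1, and Atp6v1a from 44085402 to 44139705 on the minus strand of chromosome 16. Exons of Atp6v1e1 overlap those of Slc25a18 on the opposite strand, and exons of Atp6v1h overlap those of Rgs20. Slc25a18 had 29 counts in the itaconate group and 15 in the control group, and Rgs20 had 2 and 0, against 4129 and 3465 counts for Atp6v1e1 and 1618 and 1071 counts for Atp6v1h. How much of the last 300 bases of each member's coding transcripts recurs in transcripts of other genes was searched in words of 30 bases, and the share on the same strand was at most 9.96% (Atp6v1f), with 5.54% for Atp6v1d, 1.53% for Atp6v1a and 0 for the other 5. On the opposite strand it was 8.12% for Atp6v1d, over many genes, and 0 for the other 7.

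The genes around V1 were read from lists chosen by role. In the Vo sector with its accessory proteins, 6 of 11 tested genes rose, 0 fell and 5 were not called, with a median log2 fold change of 0.30. Among all tested genes 10.7% were higher, and 20.9% among the highly expressed ones described above. That level cut was set by the lowest V1 member, and the Vo list also holds genes under it, such as Atp6v0a2. Atp6v0d2, the d isoform of osteoclasts and macrophages, rose by 1.19 ± 0.12, and its common counterpart Atp6v0d1 by 0.44 ± 0.10. Tcirg1, the a3 subunit of lysosomal and osteoclast pumps, rose by 0.44 ± 0.09 and Atp6ap2, the prorenin receptor, by 0.30 ± 0.09 (SE). The calls of Atp6v0a1 (0.31 ± 0.11, edgeR adjusted p = 0.0361), an a subunit, and of the small subunit gene Atp6v0e (0.24 ± 0.09, adjusted p = 0.0372) were lost in 7 and in 5 of 13 alternatives, with adjusted p up to 0.142 and 0.218. Atp6ap2 lost its call without itaconate replicate 1, control replicate 1 or control replicate 3 (adjusted p up to 0.108). Without control replicate 3, the count of Vo genes called higher was 3.

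Genes that build or regulate the pump went both ways, with 1 of 10 tested higher, 1 lower and 8 not called, shares near the 10.7% and 11.2% of all tested genes. Dmxl2, a rabconnectin of the complex that helps V1 rejoin Vo, had 30.4 ± 5.02 CPM in itaconate libraries and 11.5 ± 2.73 CPM in control libraries (SD, n = 3 each), a log2 fold change of 1.40 ± 0.24 (SE, edgeR adjusted p = 6.90e-06). Vma21, an endoplasmic reticulum chaperone of Vo assembly, had 51.1 ± 7.23 CPM in itaconate libraries and 72.1 ± 2.90 CPM in control libraries (SD, n = 3 each). Its log2 fold change was -0.49 ± 0.14 (SE, edgeR adjusted p = 0.00777), a call lost without itaconate replicate 2 (0.0909), when no gene of the list was called lower. Without itaconate replicate 3, 2 genes of the list were called higher.

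**Figure D4:**
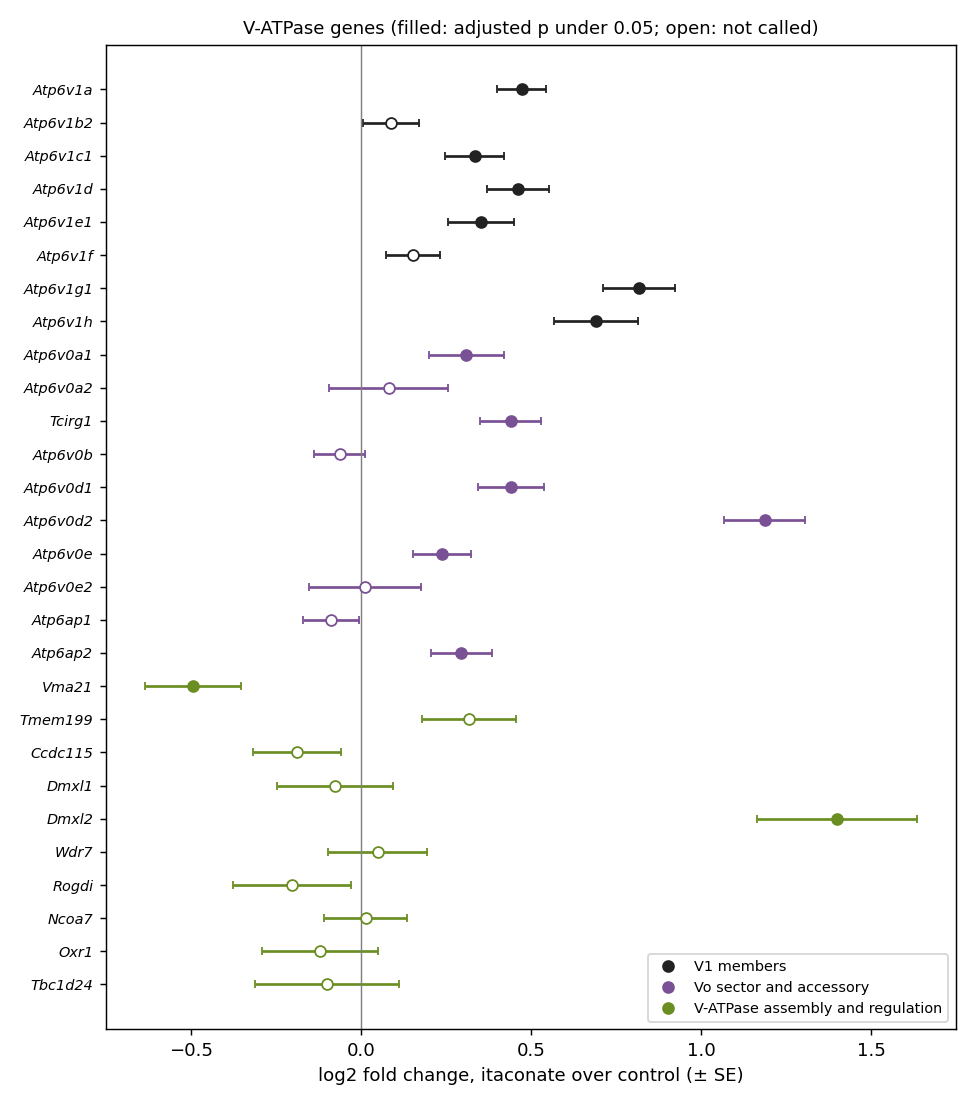
Log2 fold change of itaconate over control with SE (x axis) for the tested V-ATPase genes by role, filled where the edgeR adjusted p is under 0.05 (n = 3 libraries per group). The 8 V1 genes all lie above 0, the Vo genes reach 1.19 at Atp6v0d2, and among the assembly genes Dmxl2 lies at 1.40 and Vma21 at -0.49. Atp6v0c, with 28 counts in the itaconate group and 18 in the control group, was tested but is not drawn. How multiply mapped reads were handled is not stated, and whether these few counts reflect a low transcript level was not tested.

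The V-ATPase is also the docking site of the Ragulator and Rag proteins that recruit mTORC1 to lysosomes. Of 8 tested genes of that list, 2 rose, 0 fell and 6 were not called, against 10.7% higher among all tested genes and 20.9% among the highly expressed ones. The list also holds genes under the level cut of the latter, such as Lamtor3. Rraga rose by 0.72 ± 0.13 and Rragc by 0.33 ± 0.10 (log2 fold change ± SE, edgeR adjusted p = 6.39e-05 and 0.00938). The call of Rragc was lost without control replicate 3 (adjusted p = 0.102), which left 1 gene of the list called. The MiT/TFE factors bind the E-box core CACGTG, which was found above in the Atp6v1a window. The windows of Atp6v1d, Atp6v1e1 and Atp6v1f lacked it, and the V1 members without a window were not searched. The 4 MiT/TFE genes (Tfeb, Tfe3, Mitf and Tfec) had 0 calls, with log2 fold changes from 0.02 to 0.41 and 0 of them at an unadjusted p under 0.05. DESeq2 also called 0 of these genes. The activity of the factors was not measured.

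Lysosomal hydrolase and membrane genes had 11 of 23 tested genes higher, 0 lower and 12 not called, with a median log2 fold change of 0.22, against 10.7% higher and 11.2% lower among all tested genes and 20.9% higher among the highly expressed ones. This list too holds genes under that level cut, some of them called higher, such as Gaa. The proteases Ctsd and Ctsl rose by 0.86 ± 0.07 and 0.54 ± 0.08, and the acid glucosidase gene Gaa by 0.86 ± 0.15 (SE). The ATP synthase is the mitochondrial rotary relative of the V-ATPase and runs in the direction of ATP synthesis. Of its 9 tested F1 and stalk genes, edgeR called 0, while 3 had an unadjusted p under 0.05, and the median was 0.01. The 3 with the smallest p, Atp5a1, Atp5o and Atp5d, had log2 fold changes of -0.20 ± 0.08, -0.22 ± 0.09 and 0.20 ± 0.08 (SE, edgeR adjusted p = 0.0593, 0.0637 and 0.0774).

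Among 6426 other genes that averaged 20 CPM or more, 5 lay nearest to the mean profile of the V1 members over the 6 libraries, by the root mean square difference of centred log2 CPM. They were Sars (0.0223), the cytosolic seryl-tRNA synthetase gene, Cdk18 (0.0257), a cyclin-dependent kinase gene, Arrb1 (0.0363), which encodes the receptor adaptor beta-arrestin 1, Ubr2 (0.0408), an N-end rule ubiquitin ligase gene, and Alox5ap (0.0427), the leukotriene synthesis partner of 5-lipoxygenase. The V1 members themselves lay 0.0543 (Atp6v1c1) to 0.210 (Atp6v1g1) from that mean. Because the 5 genes were picked as the nearest of 6426, their smaller distances follow from that choice. The measure rests on 6 libraries in 2 groups, so any gene that rose by a like amount comes near.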

How the data were processed

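The authors deposited 1 table of unnormalized read counts by gene symbol. Tools named in the submitters' processing notes are HTSeq 0.6.1, STAR 2.7.5a and edgeR, with mm10 as the build. For trimming, strand setting, multiply mapped reads and annotation, details were not given in the sources used here. Without a stated strand setting, reads of overlapping antisense genes cannot be told apart. The header of the table uses tabs and has 2 empty leading cells, whereas its data rows use spaces. The 6 header names, which match the sample titles, were therefore assigned by position to the 6 columns of counts. All 6 were used, and 0 belonged to another series. Of 35976 symbols, 17720 had a count in any library.

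Genes were kept by edgeR's filterByExpr (minimum count 10, minimum total 15), which left 10636 genes with 99.74% of counts. Libraries were scaled by TMM, and the test was the quasi-likelihood F test of edgeR 4.0.16 under R 4.3.3, with robust dispersion and group as the only term, two-sided, adjusted by Benjamini-Hochberg over all genes tested and called under 0.05. The SE is the absolute log2 fold change over the square root of F. CPM values are TMM-scaled. The test was also run on simulated counts that had the same dispersion for every gene. That setting is simpler than these data, so the run does not give their rate of false calls. Intervals of 1.96 SE include the scatter among libraries. The floor of 3 counts covers only counting error, because without molecular identifiers reads do not stand for independent molecules. Alternatives used DESeq2 1.42.0, limma-voom (limma 3.58.1), other scalings and filters, a replicate block, and each library left out.

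The members, the lists around them and the motifs were chosen with earlier results of these data known. Named genes are the 8 members, their restricted isoforms, the called genes of the Vo, assembly, Ragulator and MiT/TFE lists, the 3 smallest p of the lysosomal and ATP synthase lists, and the 5 genes nearest in profile. Other genes are named only as list members without a call, as cell type markers, or as overlapping, neighbouring or undrawn. Promoter windows come from RefSeq and exons from GENCODE M21, both of GRCm38, the assembly that mm10 names.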

Additional observations from a re-analysis of the deposited data

How the results depend on the processing

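Over the 13 alternatives, all 8 V1 log2 fold changes stayed above 0, 5 of the 6 called members were called in every fit, Atp6v1e1 in 12, and Atp6v1b2 and Atp6v1f in none. The number called higher was 6 in every fit that kept all libraries and 5 to 6 with 1 library left out, and the members' median log2 fold change with 1 left out was 0.37 to 0.46. Library totals moved the median of all genes to -0.06 and that of the members to 0.36, and gave 935 genes higher and 1429 lower, against 1133 and 1191 with TMM. The difference in the share of Atp6v1e1 in the V1 sum, itaconate minus control, was -0.03 percentage points as reported and lay between -0.52 and 0.45 with 1 library left out. The log2 fold change of Atp6v1g2 was -0.62 as reported, 0.038 with limma-voom, and -1.13 to 0.31 with 1 library left out. ATP synthase genes called lower numbered 1 with DESeq2, 1 with limma-voom, 2 with library totals and 2 with the filter of at least 10 CPM in 3 libraries, and 0 to 1 with a library left out. Lysosomal genes called lower numbered 1 with DESeq2, 1 with limma-voom and 1 with library totals. With 1 library left out, 1 to 3 Ragulator and Rag genes and 3 to 5 Vo genes were called higher, and 1 to 2 assembly genes were higher and 0 to 1 lower. Causes were not tested.

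Same-numbered libraries of the groups did not deviate together across genes (correlations of -0.01, 0.02 and 0.04, and not every library correlated best with its own number). The labels name no pairing, and correlations this low do not decide whether there was one. With the replicate block, 1087 genes were higher and 1160 lower and 6 members were higher. Among the named genes, the block took the call of Atp6v0e (adjusted p = 0.0563). Depth limits the low isoforms most, since a level under 0.487 CPM is below 3 counts in every library.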
